A study of Mus musculus with 4 samples.

Results

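The genes described here are the 9 Sox transcription factors of the SoxB1 (Sox1, Sox2 and Sox3), SoxC (Sox4, Sox11 and Sox12) and SoxD (Sox5, Sox6 and Sox13) groups, chosen by gene name from the 56883 genes of the deposited table. Total RNA was sequenced from tdTomato-positive cells that were sorted by FACS from the basal telencephalon of E14.5 mouse embryos. Control embryos were Sst-Cre/tdTomato and Dnmt1 KO embryos were Sst-Cre/tdTomato/Dnmt1 loxP2, so that both genotypes carried the Cre driver and the tdTomato reporter and differed in the floxed alleles of Dnmt1, the maintenance DNA methyltransferase. Each genotype had 2 libraries, and each library was made from cells of several pooled embryos, with no label for sex. Cre is driven by the Sst locus, which becomes active in postmitotic interneurons, so the deletion and the reporter depend on the same Cre. Deletion in each tdTomato-positive cell was not measured here.

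Sox proteins bind DNA through an HMG box, and the groups differ in the rest of the protein. SoxB1 factors activate transcription and hold neural progenitors in an undifferentiated state, although Sox1 and Sox2 are also present in ventral telencephalic neurons. SoxC factors switch on neuronal genes in newly born neurons. SoxD factors lack a transactivation domain, work as dimers and alter the output of other Sox proteins. Sox6 is required for the positioning and maturation of interneurons from the medial ganglionic eminence (MGE), and Sox5 is known in the telencephalon for the differentiation of deep-layer cortical projection neurons.

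Promoter sequences are shown because the manipulated enzyme methylates CpG dinucleotides, and the 4 genes below include windows with many and with few CpG. RefSeq (build GRCm38.p6) gave 13 promoters for 8 of the 9 genes, among them 6 alternative promoters of Sox6. The 250 bases before each start are printed 5′ to 3′ on the strand of the gene, and capitals mark CpG.
Sox2, chr3:34649745-34649994, + strand: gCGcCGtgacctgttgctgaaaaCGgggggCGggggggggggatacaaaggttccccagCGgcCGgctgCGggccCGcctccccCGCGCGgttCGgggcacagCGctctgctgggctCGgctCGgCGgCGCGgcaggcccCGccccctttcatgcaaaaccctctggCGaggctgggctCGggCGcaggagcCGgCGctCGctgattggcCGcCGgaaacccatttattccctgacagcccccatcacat
Sox11, chr12:27342719-27342968, - strand: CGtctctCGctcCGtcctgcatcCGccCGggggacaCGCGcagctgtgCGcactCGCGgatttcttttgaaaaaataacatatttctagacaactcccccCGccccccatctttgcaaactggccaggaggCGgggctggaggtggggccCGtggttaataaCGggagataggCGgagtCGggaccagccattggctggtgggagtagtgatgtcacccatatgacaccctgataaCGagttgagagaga
Sox5, chr6:143947107-143947356, - strand: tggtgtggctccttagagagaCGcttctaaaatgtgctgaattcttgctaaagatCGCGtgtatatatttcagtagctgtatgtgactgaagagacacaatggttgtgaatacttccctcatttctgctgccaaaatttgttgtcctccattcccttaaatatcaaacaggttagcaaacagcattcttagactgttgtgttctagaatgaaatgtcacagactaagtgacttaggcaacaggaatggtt
Sox6, chr7:116038745-116038994, - strand: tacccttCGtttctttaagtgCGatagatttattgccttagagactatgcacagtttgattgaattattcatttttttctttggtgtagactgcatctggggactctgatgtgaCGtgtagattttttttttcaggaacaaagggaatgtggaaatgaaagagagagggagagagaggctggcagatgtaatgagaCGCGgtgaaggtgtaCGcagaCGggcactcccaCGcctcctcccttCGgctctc
The windows hold 27 CpG for Sox2, 17 for Sox11, 3 for Sox5 and 9 for this outermost promoter of Sox6, whereas the median over 32851 RefSeq promoters was 6. The Sox5 window precedes a start that lies inside the gene, far from its outermost 5′ end, and the promoters of its longer transcripts were not analysed here. The other 5 Sox6 windows held between 1 and 10. Sox12 had 35 CpG, above 97.0% of all promoters, followed by Sox13 with 31, Sox1 with 29 and Sox4 with 11. The pentamer ACAAT, part of the motif that Sox HMG boxes bind, was found on either strand in 4 of the 13 windows, all of Sox5 or Sox6, and in 27.7% of all promoters. The hexamer ACAAAG was found in 6 of the 13 windows, all of Sox2 or Sox6, and in 16.5% of all promoters. The Sox6 windows are alternative promoters of a single gene, so the 13 windows are not independent. These counts describe the letters of the windows, and neither methylation nor Sox binding was analysed here.

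The count of one Sox gene can also hold reads of another where the coding sequences are identical. A longest shared run of each group is shown because a read that lies inside one cannot be assigned to either gene.
Sox1 and Sox3: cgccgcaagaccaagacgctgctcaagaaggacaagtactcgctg
Sox4 and Sox11: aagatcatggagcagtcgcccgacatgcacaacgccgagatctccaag
Sox5 and Sox6: cagcaacagatccagcaggttca
Sox5 and Sox13 share another run as long as that of Sox5 and Sox6. The runs shown are 45, 48 and 23 bases long, all shorter than the reads. Of all 31-base words in the transcripts of a gene, at most 0.835% (Sox3) occurred in another of the 9 genes, and none did for Sox5, Sox6 and Sox13. Overlap with antisense transcripts was larger, with 59.3% of the words of Sox2, 17.3% of Sox4, 14.8% of Sox3 and 12.3% of Sox5 also present on the opposite strand of another annotated gene. The library kit keeps strand, but whether counting used it is not given in the sources used here. These 4 counts are thus uncertain to an extent that was not measured, as the percentages are of words and not of reads. Gm14662, opposite Sox3, had at most 2.04 normalized counts in a library, and A330102I10Rik, opposite Sox4, at most 33.9. The gene opposite Sox2 and several opposite Sox5 have no deposited values.

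All 9 genes passed the filter of a mean normalized count of at least 10, the deposited value being reads divided by 1 size factor per library. With these size factors, 5 of the 9 genes were higher in Dnmt1 KO cells (Sox1, Sox2, Sox4, Sox11 and Sox6). Another 3 were lower (Sox3, Sox5 and Sox13), and Sox12 did not pass the test. Relative to GABAergic genes, which were higher themselves, Sox2, Sox4, Sox11 and Sox12 turned to the opposite sign. Sox1 was then near no change, with overlapping libraries (values given below). These signs depend on the reference genes chosen. Calls were made with limma at an adjusted p below 0.05 over the 14323 genes tested, and of these 17.3% were called, 8.3% as higher and 8.99% as lower. None of the 9 genes overlapped between genotypes, which was also true of 57.4% of all genes tested with 2 libraries against 2. The median log2 fold change (Dnmt1 KO minus control) of the 9 genes was 0.26, against -0.0033 over all genes tested, and the median of its absolute size was 0.56 against 0.21. Whether the 2 libraries of a genotype came from fully separate dissections is not stated, so p-values do not reach beyond these libraries. They combine the spread between libraries with a variance trend over all genes tested (median residual plus prior degrees of freedom 15.1). Without that trend 0 genes were called.

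**Figure D1:**
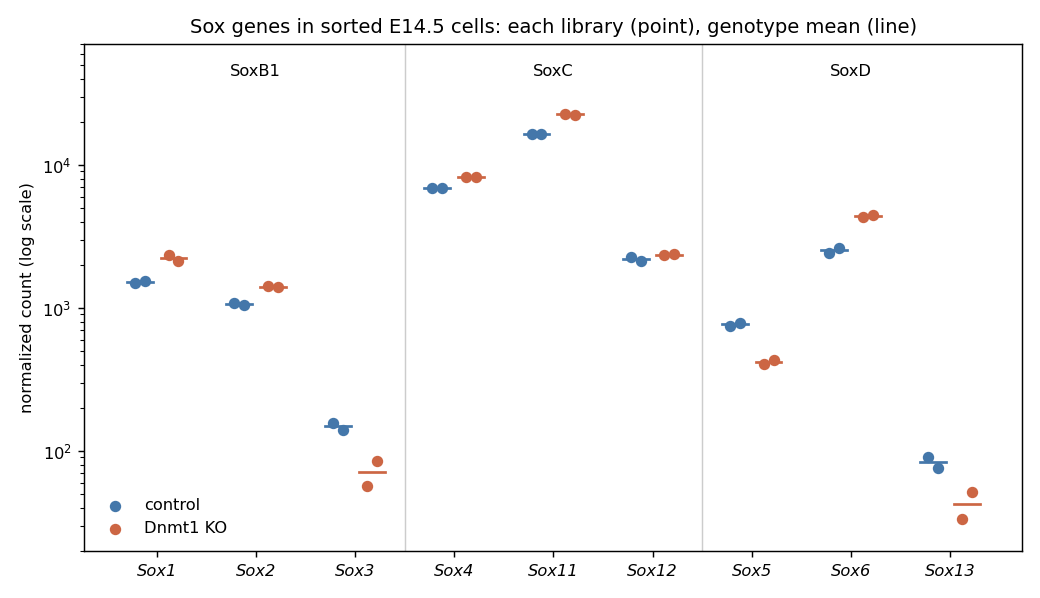
Normalized counts (log axis) of the 9 Sox genes, with a point for each library and a line for the genotype mean. Blue control and orange Dnmt1 KO points do not overlap for any gene, and levels run from 33.5 for Sox13 to 22739 for Sox11, each in a Dnmt1 KO library.

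Sox11 and Sox4 of the SoxC group were the most abundant of the 9 genes. Per kb of transcript, the order in control cells was Sox11 (1974 normalized counts per kb), Sox4 (1432), Sox2 (520), Sox12 (496), Sox1 (313), Sox6 (270), Sox5 (96.1), Sox3 (72.2) and Sox13 (21.8). In control cells no neighbours in this order overlapped between libraries. In Dnmt1 KO cells the order was the same except that Sox6 (471 normalized counts per kb) came level with Sox1 (463), whose 2 libraries, at 485 and 441, lay on either side of those of Sox6, at 463 and 479. Sox5 and Sox6 have 30 and 36 annotated transcripts, and their level per kb depends on the one chosen. Over the merged exons of all its transcripts, Sox6 had 155 per kb in control and 271 in Dnmt1 KO cells, below Sox1 in both. Sox5 then had 49.5 and 26.8, below Sox3 (72.2 and 34.5).

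Sox1, which lies at chr8:12445295-12450126 (GRCm39, plus strand) and consists of 1 exon, is a SoxB1 activator. It had normalized counts of 1487 and 1540 in control and 2344 and 2132 in Dnmt1 KO cells. Both Dnmt1 KO libraries were higher, with a log2 fold change of 0.56 (SE 0.062, n = 2 libraries per genotype, adjusted p = 1.52e-05, limma).

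Sox2, the SoxB1 factor best known for neural stem cell maintenance, lies at chr3:34704554-34706610 on the plus strand. Its counts were 1085 and 1055 in control and 1429 and 1390 in Dnmt1 KO cells. The increase was 0.40 on the log2 scale (SE 0.064, adjusted p = 0.00048, limma). Its difference from that of Sox1 was 0.17, with an interval of ±2 SE from -0.012 to 0.34 that includes 0. For this and all later differences the SE treats the genes as independent, although they were measured in the same libraries. The ratio of Sox1 to Sox2 was 1.37 and 1.46 in control and 1.64 and 1.53 in Dnmt1 KO libraries.

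Sox3, the X-linked SoxB1 gene at chrX:59934972-59937036 on the minus strand, moved the other way. It had 157 and 141 normalized counts in control and 57.2 and 85.2 in Dnmt1 KO cells, from 58 to 176 reads per library. Both Dnmt1 KO libraries were lower, but they also stood further apart than the control libraries. The log2 fold change was -1.08 (SE 0.20, 95% interval -1.51 to -0.65, adjusted p = 0.00172, limma). Sox2 and Sox3 differed in their response by 1.48 on the log2 scale (±2 SE interval 1.05 to 1.90), and the share of Sox3 in all SoxB1 counts was 5.46% ± 0.437 (SD, n = 2) in control and 1.93% ± 0.615 in Dnmt1 KO cells.

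Both single-exon SoxB1 genes that rose lie inside a long noncoding gene on the same strand. Sox2ot, the host transcript of Sox2, had counts of 829 and 804 in control and 1263 and 1289 in Dnmt1 KO cells, a log2 fold change of 0.64 (adjusted p = 1.01e-05, limma). Sox1ot, which surrounds Sox1, had 586 and 641 against 897 and 864, a log2 fold change of 0.52 (adjusted p = 0.000278, limma). Thus both hosts were higher in each Dnmt1 KO library than in either control library. The ratio of Sox2 to Sox2ot was 1.31 in both libraries of the control and 1.13 and 1.08 in those of the Dnmt1 KO, so that Sox2 rose less than its host by 0.25 on the log2 scale (interval of the difference, Sox2 minus Sox2ot, -0.43 to -0.061). For Sox1 and Sox1ot the difference was 0.041, with an interval from -0.16 to 0.24. Of the 31-base words of Sox2, 0.395% occurred on the same strand of another annotated gene, which was Sox21 and not Sox2ot. For Sox1 the value was 1.60%, with 1.17% in the microRNA gene Gm54672. As gene and host share a strand, any read of the host that falls within the gene still cannot be told apart from its own.

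Sox11 (chr12:27384263-27392573, minus strand), which promotes neuronal gene expression and neurite growth in new neurons, ranked 16th of all genes tested by mean level. Its counts were 16411 and 16406 in control and 22739 and 22350 in Dnmt1 KO cells. The control libraries were nearly identical and both Dnmt1 KO libraries were above them, with a log2 fold change of 0.46 (SE 0.034, adjusted p = 3.03e-07, limma).

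Sox4 (chr13:29132902-29137696, minus strand), which acts with Sox11 in early neuronal differentiation, had 6856 and 6874 normalized counts in control and 8159 and 8271 in Dnmt1 KO cells. The change was the smallest among the called genes, at 0.26 (SE 0.040, adjusted p = 0.000335, limma). Sox11 exceeded Sox4 in its response by 0.20 (±2 SE interval 0.095 to 0.30), but by 0.094 (SE 0.051) with a correction for length and GC content, where an interval of ±2 SE includes 0. A330102I10Rik, a noncoding gene on the opposite strand of Sox4, had 9.84 and 12.3 against 30.6 and 33.9 normalized counts, with a log2 fold change of 1.47 (SE 0.39, adjusted p = 0.0171, limma), and was not called when the control library 1 (1.32, adjusted p = 0.0722) or the Dnmt1 KO library 2 (1.40, adjusted p = 0.0831) was left out of limma.

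Sox12 (chr2:152235531-152239983, minus strand) is the weakest activator of the SoxC group. Counts of 2279 and 2141 in control and 2355 and 2363 in Dnmt1 KO cells gave a log2 fold change of 0.095 with a 95% interval from -0.022 to 0.21 (adjusted p = 0.269, limma). The nearest libraries of the genotypes were closer to each other than the pair of control libraries was. With that correction the value was 0.19 (adjusted p = 0.0248, limma). The response of Sox11 exceeded that of Sox12 by 0.36 (±2 SE interval 0.23 to 0.49) and that of Sox4 exceeded it by 0.16 (0.028 to 0.30).

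Sox6 (chr7:115070106-115638860, minus strand), the SoxD gene of MGE interneurons, had 2422 and 2618 normalized counts in control and 4321 and 4472 in Dnmt1 KO cells. Both Dnmt1 KO libraries lay far above the control libraries, a log2 fold change of 0.80 (SE 0.052, adjusted p = 9.79e-08, limma).

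Sox5 (chr6:143774151-144727703, minus strand), the SoxD gene of early-born cortical projection neurons, had 753 and 786 counts in control and 402 and 430 in Dnmt1 KO cells. Here both Dnmt1 KO libraries were lower, with a log2 fold change of -0.88 (SE 0.084, adjusted p = 4.19e-06, limma). The number of Sox6 counts for each Sox5 count was 3.22 and 3.33 in control and 10.7 and 10.4 in Dnmt1 KO cells, and the responses of these paralogs differed by 1.69 on the log2 scale (±2 SE interval 1.49 to 1.89).

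Sox13 (chr1:133310039-133352222, minus strand), the least abundant SoxD gene, had 91.3 and 75.5 counts in control and 33.5 and 51.4 in Dnmt1 KO cells, from 34 to 102 reads per library. Its log2 fold change was -0.98 (SE 0.25, 95% interval -1.53 to -0.44, adjusted p = 0.0144, limma). The call was lost in DESeq2 (adjusted p = 0.0839) and in limma without control library 1 (-0.85, adjusted p = 0.135), control library 2 (-1.12, adjusted p = 0.0504) or Dnmt1 KO library 1 (-0.68, adjusted p = 0.076). The responses of Sox5 and Sox13 were not separated, the difference being 0.099 with a ±2 SE interval from -0.44 to 0.64.

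**Figure D2:**
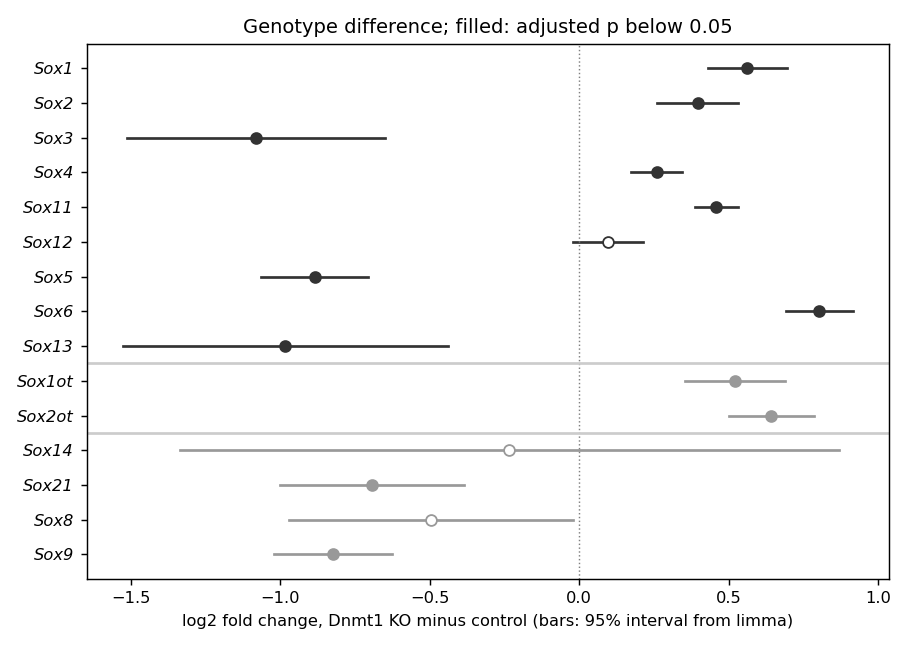
Log2 fold change (Dnmt1 KO minus control) with its 95% interval from limma for the 9 Sox genes (black), the host transcripts Sox1ot and Sox2ot and the other Sox genes that could be tested (grey), filled where the adjusted p is below 0.05. Within SoxB1 and within SoxD, intervals lie on both sides of 0, whereas that of Sox12 includes it.

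The make-up of the 3 groups therefore shifted to different degrees. Sox6 held 74.7% ± 0.757 (SD, n = 2) of SoxD counts in control and 90.6% ± 0.397 in Dnmt1 KO cells, and Sox5 held 22.8% ± 0.316 and 8.57% ± 0.163. Sox11 held 64.4% ± 0.211 and 68.1% ± 0.439 of SoxC counts, and Sox1 held 55.4% ± 1.28 and 60.1% ± 1.47 of SoxB1 counts. These shares do not depend on the size factors. Per kb of transcript the Sox6 share was 69.6% in control and 88.2% in Dnmt1 KO cells.

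**Figure D3:**
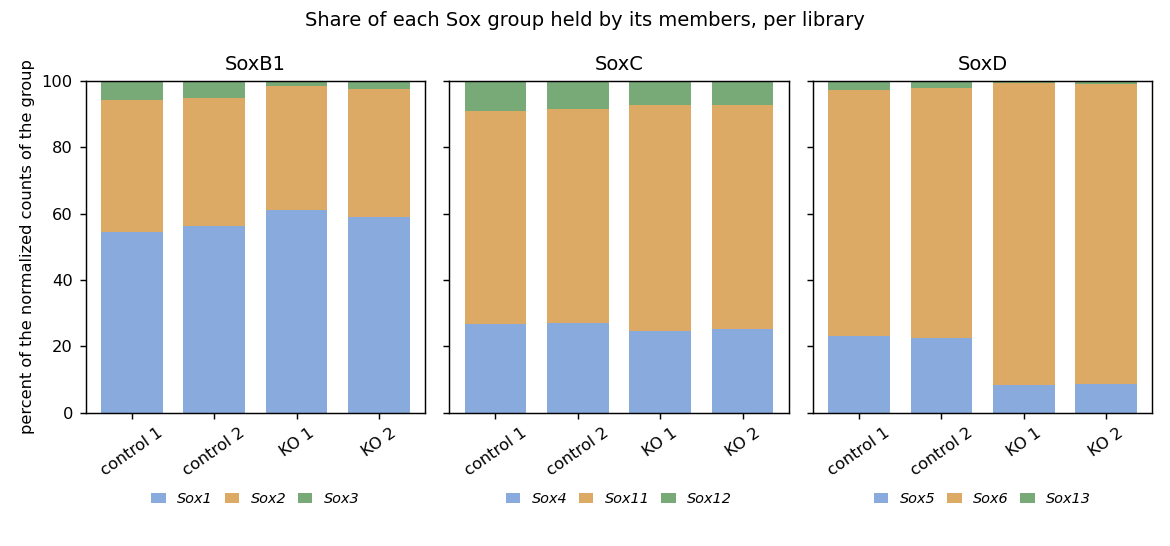
Percent of the normalized counts of SoxB1, SoxC and SoxD genes held by each member, stacked to 100% per library. The Sox6 part of the SoxD bar is 74.7% on average in control and 90.6% in Dnmt1 KO libraries, and the SoxC bars move least.

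The sorted cells carried interneuron markers in every library, and the summed counts of markers of other cell types differed between genotypes. Of 16 MGE interneuron genes, which include Gad1, Gad2 and Sst, 14 were higher and none lower in Dnmt1 KO cells. Their median log2 fold change was 0.60, with summed counts of 23990 to 24308 in control and 36551 to 36844 in Dnmt1 KO cells. The most abundant of them, Sst, had 5580 and 5963 against 8303 and 7825 normalized counts. Maf, a transcription factor of SST+ interneurons, had the largest change of the list, at 1.12 on the log2 scale.

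Most genes of neural progenitors, the cells in which SoxB1 factors are best known, were lower, whereas Sox1 and Sox2 were higher. Of 11 neural progenitor genes, 8 were lower, 1 higher and 2 not called, with a median of -0.79 and sums of 13012 to 13084 in control and 8304 to 8554 in Dnmt1 KO cells. Vim and Nes, intermediate filament genes of radial glia, fell by 1.03 each on the log2 scale. All 10 genes of cycling cells were lower, with a median of -0.59. Of 7 genes of the neurogenic transition, 3 were lower and 4 not called, with a median of -0.26.

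Most genes of the excitatory lineage, in which Sox5 has a known role, were lower too. Of 8 genes, 7 were lower and 1 was not called, with a median of -1.13 and sums of 2972 to 3029 in control and 1456 to 1612 in Dnmt1 KO cells. Tbr1, a transcription factor of deep-layer neurons, had 774 and 775 normalized counts in control and 519.8 and 458.9 in Dnmt1 KO cells. Neurog2, a proneural factor of the cortical lineage, fell by 1.40 on the log2 scale. The decreases of Sox3, Sox5 and Sox13 were thus measured in libraries that also held less RNA of genes typical of these other cells, and the part of this in the Sox values was not tested. In bulk RNA, fewer cells of a type and less RNA per cell cannot be told apart.

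All 7 vascular genes tested (median -1.25, sums of 613 to 666 against 264 to 276) and all 7 blood genes tested (median -2.09, sums of 2397 to 2587 against 576 to 589) were lower as well. Among microglial genes 1 of 3 tested was lower (median -1.22, sums of 82.3 to 103 against 30.6 to 43.7), and none of the 4 oligodendrocyte precursor genes was called (median -0.58). None of the genes of these lists was at 0 in every library. The 12 pan-neuronal genes were divided, with 4 higher, 4 lower, 4 not called and a median of 0.039.

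**Figure D4:**
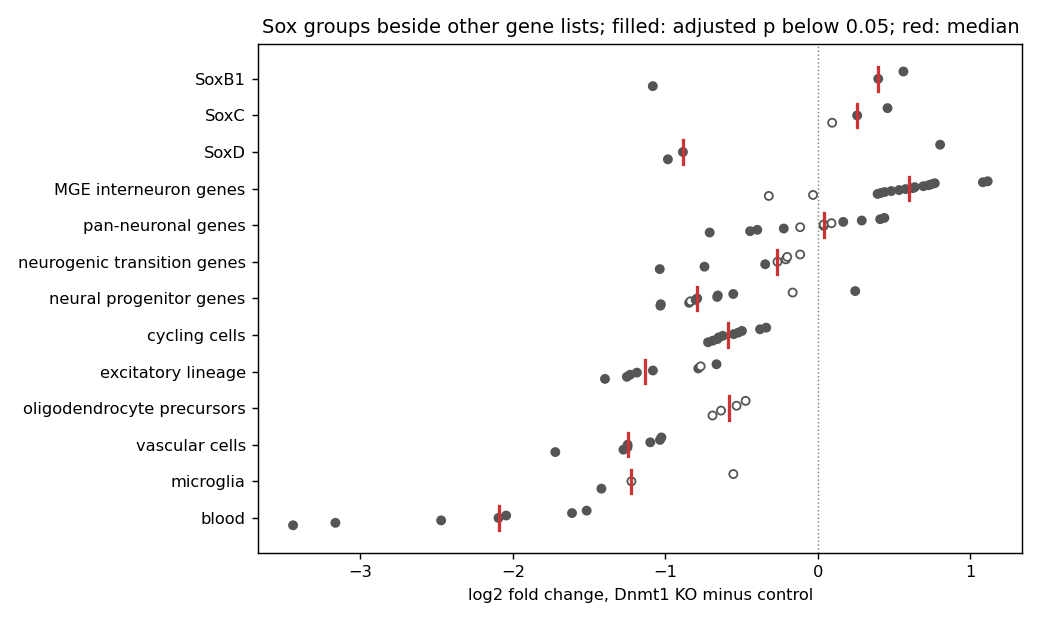
Log2 fold change (Dnmt1 KO minus control) of each tested gene of the Sox groups and of 10 gene lists, filled where the limma adjusted p is below 0.05, with the median as a red line. Medians are 0.60 for MGE interneuron genes, -0.79 for neural progenitor genes and -1.13 for the excitatory lineage.

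Because GABAergic genes rose with most of the Sox genes, each member was also set against the summed counts of Gad1, Gad2 and Slc32a1 (GABA synthesis and vesicular transport) in the same library, a comparison chosen after the values were seen. That sum was 3673 and 3637 in control and 5534 and 5507 in Dnmt1 KO cells, a log2 ratio of 0.59. Each ratio below is therefore close to the log2 fold change of the member lowered by that amount. For 100 of these counts there were 68.95 ± 4.26 (SD, n = 2) Sox6 counts in control and 79.7 ± 2.20 in Dnmt1 KO cells, a log2 ratio of 0.21. Sox6 was the one member with a positive ratio. For Sox1 the libraries overlapped, at 40.5 and 42.3 in control and 42.4 and 38.7 in Dnmt1 KO cells. The signs of these ratios depend on the reference genes, as the 16 MGE interneuron genes ran from -0.32 to 1.12 on the log2 scale. Of these, Dlx1 rose by 0.39, less than Sox1, and Erbb4 rose by 1.08, more than Sox6.

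The remaining members were lower relative to GABAergic genes in both Dnmt1 KO libraries, including 4 with a positive log2 fold change under the size factors. Sox2, Sox11, Sox4 and Sox12 had log2 ratios of -0.20, -0.14, -0.34 and -0.50. Sox5, Sox13 and Sox3 had the lowest, at -1.48, -1.57 and -1.66. No test was made on these ratios.

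**Figure D5:**
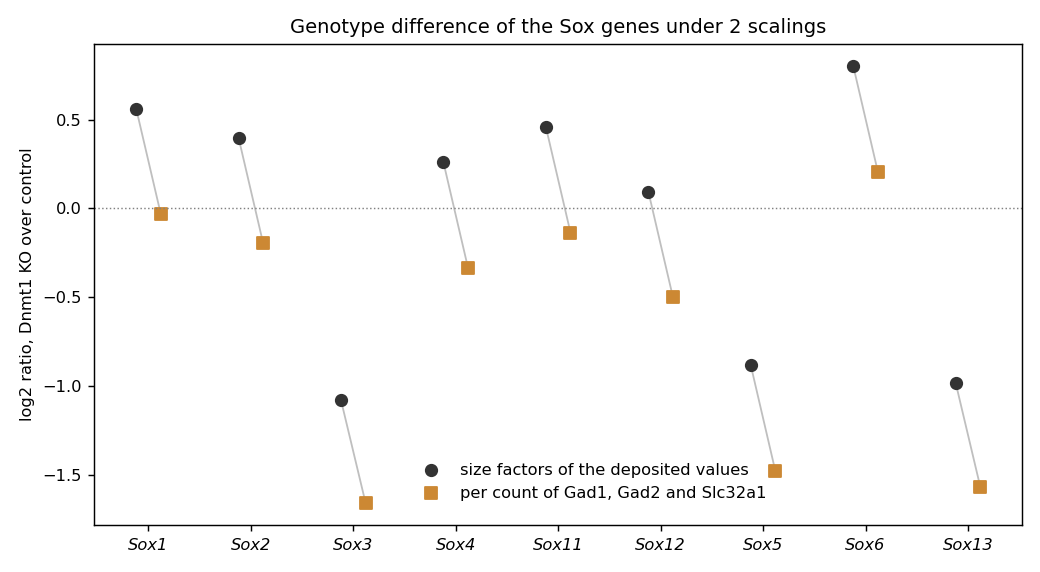
Log2 ratio of Dnmt1 KO over control for each Sox gene, with the size factors of the deposited values (black circles) and per summed count of Gad1, Gad2 and Slc32a1 (orange squares). Under the second scaling Sox6 alone stays above 0, at 0.21, and Sox1 lies at -0.03. Signs under this scaling depend on the reference genes chosen.

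Among the other Sox genes, 4 of 10 could be tested, and 2 were lower, 2 were not called and none was higher. Sox9 (SoxE), which is expressed by radial glia and glial precursors, had 557 and 593 counts in control and 317 and 332 in Dnmt1 KO cells, and its log2 fold change was -0.82 (adjusted p = 1.95e-05, limma). Sox21 (SoxB2), a repressor that counteracts SoxB1 activity, had 223 and 203 against 142 and 121, a log2 fold change of -0.69 (adjusted p = 0.00362, limma). The endothelial gene Sox7 was below the filter, with 15.2 and 18.4 against 2.96 and 1.09 counts.

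The genes most like 3 of the members across the 4 libraries were sought among 8145 protein-coding genes with a mean count of at least 100, by the root mean square difference of centred log2 values. For Sox11 these were Bcl11b (0.0062) and Aff2 (0.0082), for Sox1 Zbtb34 (0.0085) and Tmem178b (0.022), and for Sox6 Pcdh15 (0.024) and Ptprm (0.038). Bcl11b, a zinc finger transcription factor, had 3349 and 3317 counts in control and 4596 and 4514 in Dnmt1 KO cells. With 4 libraries such a likeness mainly reflects a fold change of the same size.

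The targeted gene itself does not check the labels here, as its whole-gene count was not called and does not separate the floxed exons. Dnmt1 had 2238 and 2341 normalized counts in control and 2164 and 2210 in Dnmt1 KO cells, with a log2 fold change of -0.066 (adjusted p = 0.461, limma). For sorted cells of the E14.5 cortex, the paper reported a lower Dnmt1 transcript count in the knockout. It also reported a weaker DNMT1 immunostaining of tdTomato-positive cells at E14.5. Depth was similar between libraries, with 6970247 to 8376711 reads recovered in each.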

How the data were processed

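The authors trimmed reads with Trim Galore, mapped them with STAR on GRCm39, obtained gene counts with Salmon and normalized counts with DESeq2. The deposited signal is a normalized count, whole reads scaled with a single size factor for each library. All 89965 values above 0 (100%) gave whole reads to within 0.0001, and edgeR on these reads called 2528 genes. Values were tested as log2(normalized count + 1) with limma 3.58.1 (trend in eBayes) in R 4.3.3, for genes with a mean of at least 10, and p was adjusted by Benjamini-Hochberg over all genes tested. Fold changes are on that scale and understate changes of low genes. The steps were tested on simulated data.

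The members and the gene lists were chosen with earlier results of these data known. Named genes are the members, other Sox genes, the tested genes that overlap a member, the most abundant and most changed gene of each list, and the most similar genes of 3 members. Gad1, Gad2 and Slc32a1 were chosen after their values were seen. Positions and transcripts came from GENCODE (GRCm39), promoters from RefSeq (GRCm38.p6). Alternatives were other pseudocounts, filters and scalings, limma without the trend, limma-voom, edgeR 4.0.16, DESeq2 1.42.0, a length and GC correction (spline of 5 degrees of freedom), the replicate block and each library left out, where the lone library was assumed to vary like the others.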

Additional observations from a re-analysis of the deposited data

How the results depend on the processing

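Sox1, Sox2, Sox3, Sox4, Sox11, Sox5 and Sox6 were called in the same direction under each alternative that gave a p-value except limma without the variance trend, where 0 genes and 0 Sox members had an adjusted p below 0.05 (smallest 0.0592, with 3339 genes at an unadjusted p below 0.05). Fold changes there are those of the report (Sox1 0.56, Sox2 0.40, Sox3 -1.08, Sox4 0.26, Sox11 0.46, Sox5 -0.88, Sox6 0.80 and Sox13 -0.98 on the log2 scale), with limma adjusted p from 0.0616 for Sox5 to 0.199 for Sox4. Over all genes, DESeq2 called 1317 against 2476, and leaving out 1 library gave 1525 to 2205, with 1648 without control library 1 and 1525 without control library 2. Sox13 was -0.98 and not called in DESeq2, and ranged from -1.28 to -0.68 with 1 library left out. The length and GC correction called Sox12 (0.19), turned Dnmt1 to 0.018 and 1110004F10Rik, which lies opposite Sox6, to 0.016, and gave differences of 0.094 for Sox11 minus Sox4 and 0.27 for Sox11 minus Sox12. Quantile normalization gave 0.29 and 0.44 for the same pairs. Sox5 minus Sox13 was -0.021 with a pseudocount of 10, -0.037 after quantile normalization and -0.15 to 0.35 with 1 library left out. With 1 library left out, Sox6 minus Sox13 was 1.51 to 2.06, Sox2 minus Sox3 1.18 to 1.78, Sox1 minus Sox3 1.29 to 2.00, and the uncalled Sox14 -1.02 to 0.56. Per kb of transcript, shares in control and Dnmt1 KO cells were 34.6% and 39.1% for Sox1, 50.6% and 54.7% for Sox11, and 69.6% and 88.2% for Sox6. Relative to Gad1, Gad2 and Slc32a1, an alternative chosen after seeing the data, log2 ratios were -0.031 (Sox1), -0.20 (Sox2), -1.66 (Sox3), -0.34 (Sox4), -0.14 (Sox11), -0.50 (Sox12), -1.48 (Sox5), 0.21 (Sox6) and -1.57 (Sox13). Apart from values set by the construction of an alternative, the cause of these changes was not tested. The replicate numbers did not pair the libraries (correlation of replicate differences between genotypes -0.085). With the replicate block 2957 genes and 8 Sox members were called. Depth limits Sox3 and Sox13 most, with 34 to 176 reads per library.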
